A study of Mus musculus with 8 samples.

Results

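The Reg genes encode small secreted proteins with a single C-type lectin fold, and the 6 examined here are Reg1, Reg2, Reg3a, Reg3b, Reg3d and Reg3g. They were taken by symbol from a table of 19129 genes measured in pancreatic tumour isografts of 8 mice, and all 6 were present. Of the libraries, 4 are labelled control and 4 are labelled MEKi, the latter, per the labels, from mice given the MEK inhibitor trametinib for 7 days. Genes driven by ERK, the kinase that MEK activates, were not called lower in the MEKi libraries as given further on, so differences are given between labels, and whether the labels match the treatment was not tested. An isograft is a tumour grown from transplanted material of the same inbred background. The sources used here do not name the tumour genotype, the strain, the animals' age or what the control mice received, and the groups carry no further label. Each library is from its own mouse. Values are on a log2-like, variance-stabilised scale made by the authors, on which 5.12 stands for 0 reads, and they are given as mean ± SD with n = 4 mice per label. Reads were recovered from those values, and 20090101 to 38569550 reads per library fell in tested genes.

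In the healthy pancreas, acinar cells, which make the digestive enzymes, are a main source of Reg proteins, and their transcripts are known to climb sharply in pancreatitis and around tumours. Reg1 encodes lithostathine, also called pancreatic stone protein, and Reg2 encodes its close relative. The Reg3 genes encode lectins that are also made in the gut, where Reg3g and Reg3b act against bacteria and are switched on through interleukin 6 family cytokines or interleukin 22 and the transcription factor STAT3. Reg3b is known as pancreatitis-associated protein, and Reg3d is related to the islet neogenesis-associated protein of hamsters. Since acinar cells make both Reg proteins and enzymes, each member was set beside Cpb1, the gene of the digestive enzyme carboxypeptidase B, and beside the mean of 23 measured acinar enzyme genes.

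The 6 genes lie in one cluster on chromosome 6 of GRCm38, between bases 78370657 and 78468872, which spans 98.2 kb. In order along the chromosome they are Reg3b (78370657 to 78373466), Reg3d (78375874 to 78378865), Reg3a (78380709 to 78383827), Reg2 (78395623 to 78408106), Reg1 (78422711 to 78428667) and Reg3g (78466269 to 78468872). Reg3d and Reg3g are on the reverse strand and the other 4 on the forward strand. All are annotated as protein coding, and 0 other genes of the table lie between them. The longest coding transcripts have 6 exons, except that of Reg1 with 7. Reg1 and Reg2 are the most alike in their transcripts, with 78.9% identical bases over 674 aligned bases. The longest stretch that any 2 members share without a mismatch is 35 bases, between Reg3b and Reg3g, and the read length is not known here, so reads shared between members were not assessed.

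**Figure D1:**
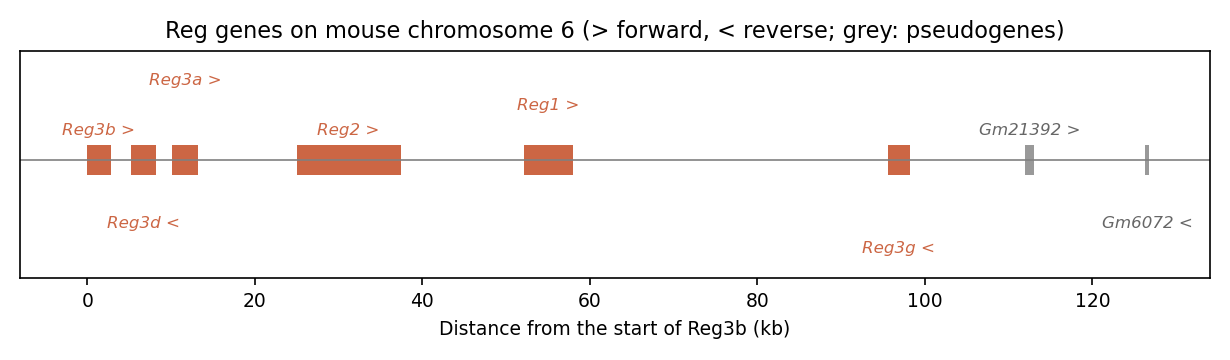
Map of the Reg cluster on mouse chromosome 6, with distance from the start of Reg3b in kilobases on the x axis. Orange boxes are the 6 Reg genes, grey boxes are annotated pseudogenes, and > or < after a name gives the strand. The 6 genes lie within 98.2 kb.

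The sequence before the start of 4 members is shown because their values differ in the library that had the fewest acinar reads, as described below: Reg2 and Reg3d had 6 and 0 reads there, and Reg1 and Reg3g had 880 and 373. The sequences are from RefSeq for GRCm38.p6 and run 5′ to 3′ towards the gene, up to 250 bases, without annotated exons. RefSeq starts are used, and for Reg1 and Reg2 they lie inside the longer gene spans given above from GENCODE, so these stretches are within those spans. They lie at chr6:78404905-78405154 on the forward strand (Reg2), chr6:78378866-78379115 on the reverse strand (Reg3d), chr6:78425733-78425929 on the forward strand (Reg1) and chr6:78468875-78469124 on the reverse strand (Reg3g). Capitals mark, on either strand, matches to the motif CACCTG, to the motif TTTCCC, to the motif TTCNNNGAA or to the motif TATAAA.
Reg2: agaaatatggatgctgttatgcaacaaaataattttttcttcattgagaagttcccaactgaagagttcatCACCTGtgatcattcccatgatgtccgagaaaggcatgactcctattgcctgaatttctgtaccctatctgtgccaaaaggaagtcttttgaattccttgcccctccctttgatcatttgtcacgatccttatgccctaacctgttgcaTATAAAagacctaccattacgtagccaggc
Reg3d: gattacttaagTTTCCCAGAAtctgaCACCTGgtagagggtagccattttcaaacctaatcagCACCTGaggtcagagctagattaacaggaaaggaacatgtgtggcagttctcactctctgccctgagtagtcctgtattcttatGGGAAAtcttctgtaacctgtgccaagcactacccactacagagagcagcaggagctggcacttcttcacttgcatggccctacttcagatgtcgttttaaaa
Reg1: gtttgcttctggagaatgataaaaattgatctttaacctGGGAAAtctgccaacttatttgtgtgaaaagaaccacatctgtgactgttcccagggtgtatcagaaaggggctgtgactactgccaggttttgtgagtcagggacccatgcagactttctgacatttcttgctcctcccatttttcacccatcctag
Reg3g: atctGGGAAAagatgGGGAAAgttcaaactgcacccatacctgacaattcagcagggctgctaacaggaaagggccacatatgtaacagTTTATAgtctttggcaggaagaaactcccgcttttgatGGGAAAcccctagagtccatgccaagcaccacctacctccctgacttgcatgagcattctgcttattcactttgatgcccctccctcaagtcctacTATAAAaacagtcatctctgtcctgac

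CACCTG and TTTCCC are forms of the boxes bound by PTF1, the factor complex of acinar enzyme genes, TTCNNNGAA is the core bound by STAT proteins, and TATAAA is the TATA box. In the 250 bases before the start, CACCTG was found in 4 of 6 members (Reg2, Reg3a, Reg3b and Reg3d), against 17.2% of 32851 promoters of the same length. TTTCCC was found in Reg1, Reg3b, Reg3d and Reg3g, against 21.9% of promoters. TTCNNNGAA was found in Reg3b and Reg3d, against 7.02%, and TATAAA in Reg1, Reg2, Reg3b and Reg3g, against 12.4%. The capitals of Reg3d begin with a TTTCCC match that overlaps a TTCNNNGAA match. The TATA box of Reg1 falls in an exon of a longer transcript and is therefore not among the bases shown. The 4 members shown were chosen by their reads in the library with the fewest acinar reads. Of the members not shown, Reg3b and Reg3a both have a CACCTG match and had 325 and 1 reads there. These matches describe letters in the sequence only.

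Expression of all 6 Reg genes was far higher in the libraries control 2 and control 3 than in the other 6 libraries, whatever their label. These libraries were also the richest in acinar enzyme reads. The 23 acinar enzyme genes took 5.73% of the reads of control 2 and 15.9% of control 3, against 0.00197% to 0.337% in the other 6. The Reg genes together took 1.14% and 1.91% of the reads of these libraries, and 0.0053% to 0.0434% of the reads of the others. In tissue RNA, fewer cells of a type and less RNA per cell cannot be told apart.

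For Reg1 the 4 control libraries, in the order of their replicate numbers, stood at 11.54, 15.94, 17.37 and 10.05, and the 4 MEKi libraries at 10.29, 10.55, 9.62 and 11.79. Control 2 and control 3 stood at least 4.15 above every other library. The other 6 libraries overlapped between the labels and lay within 2.17 of each other, the narrowest range after that of Reg3g. In reads, Reg1 ran from 821 in control 4 to 123545 in control 3, and it still had 880 reads in MEKi 3.

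For Reg2, in the same order, the control libraries stood at 11.24, 16.61, 17.67 and 9.11 and the MEKi libraries at 10.04, 10.11, 5.65 and 11.90. MEKi 3 was far below all others, with 6 reads (exact Poisson interval 2.2 to 13.1) against 400 to 152245 reads elsewhere. Between control 3 and MEKi 3 the normalised reads of Reg2 differed 42650-fold, with an exact 95% interval of 19590 to 116200 that covers counting error only. Cpb1 spanned 68180-fold between the same libraries (interval 34590 to 157900), and both intervals overlap.

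Reg3a had values of 10.24, 15.38, 15.86 and 8.01 in the control libraries and of 8.52, 9.22, 5.34 and 9.86 in the MEKi libraries. Its lowest library was again MEKi 3, with 1 read (exact Poisson interval 0.0253 to 5.57). Reg3d, the least abundant member in 7 of the 8 libraries per length, had values of 8.13, 12.88, 14.01 and 6.70 in the control libraries and of 7.14, 7.34, 5.12 and 8.07 in the MEKi libraries. It had 0 reads in MEKi 3, a count that allows up to 3 reads in that library, and against this floor control 3 was at least 6702-fold higher.

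Reg3b had values of 11.71, 16.39, 16.81 and 9.39 in the control libraries and of 9.86, 10.66, 8.37 and 11.11 in the MEKi libraries. MEKi 3 was its lowest library too, but at 325 reads, and control 3 was 432-fold higher (interval 387 to 483). Reg3g, the antibacterial lectin of the gut, had values of 9.67, 13.51, 13.78 and 8.43 in the control libraries and of 8.30, 9.29, 8.53 and 8.25 in the MEKi libraries. Its span was the smallest of the family, 58.4-fold between control 3 and MEKi 4 (interval 52.7 to 64.9). Outside control 2 and control 3, Reg3g stayed within 1.42, and MEKi 3 was not its lowest library.

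**Figure D2:**
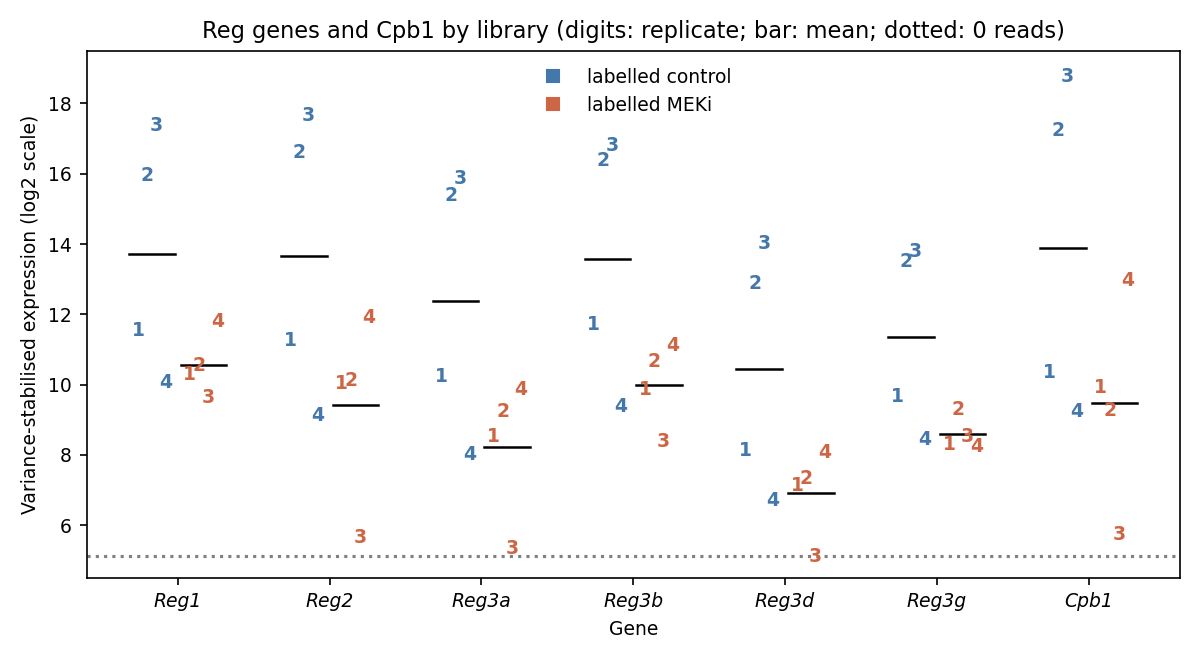
Variance-stabilised expression (log2 scale, y axis) of the 6 Reg genes and Cpb1 (x axis). Each digit is the replicate number of a library, blue for those labelled control and orange for those labelled MEKi, black bars are group means, and the dotted line at 5.12 is 0 reads. Control 2 and control 3 stand above all other libraries for every gene, and MEKi 3 is near the line for Reg2, Reg3a, Reg3d and Cpb1 only.

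Compared per length as normalised reads per kilobase of transcript, Reg2 was the most abundant member in 4 libraries, Reg3b in 2 and Reg1 in 2. The level of Reg2 was 143500 in control 2 and 299200 in control 3, where Reg3b reached 109900 and 146300 and Reg1 69680 and 187500. In control 1 the levels were 4202 for Reg3b, 3355 for Reg2 and 3214 for Reg1, whereas in MEKi 3 they were 339 for Reg3b, 7.01 for Reg2 and 794 for Reg1. Their order changed from library to library, so it is not fixed beyond the spread between mice. Reg3a, Reg3g and Reg3d were the 3 lowest members in every library except MEKi 3. Reg3d had 58.8 to 274 normalised reads per kilobase in the libraries other than MEKi 3, control 2 and control 3.

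The make-up of Reg reads in MEKi 3 stood apart in these values. There 55.5% of them came from Reg1, 23.5% from Reg3g and 20.5% from Reg3b, while Reg2 gave 0.379% and Reg3a 0.0631%. In the other 7 libraries Reg2 gave 18.6% to 35.9% of the Reg reads, and Reg3g gave 2.24% to 10.8%. The share of Reg3g was lowest in MEKi 4 (2.24%), control 3 (2.4%) and control 2 (3.74%), the 3 libraries with the highest acinar enzyme mean.

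**Figure D3:**
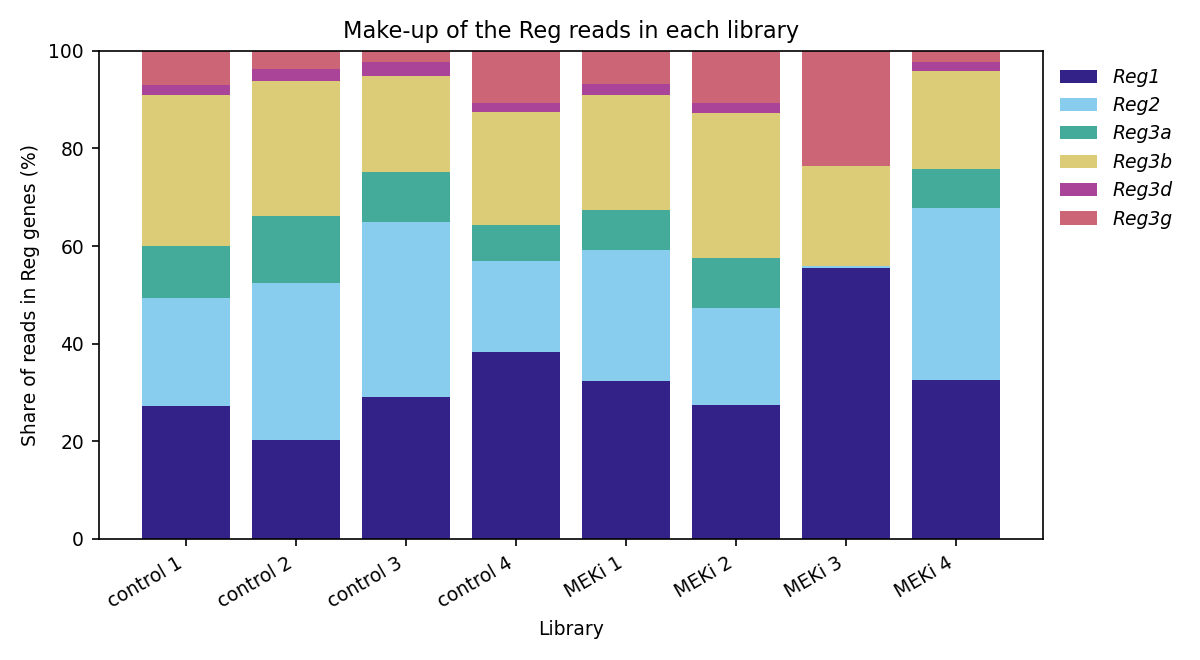
Share of the reads in the 6 Reg genes that each gene took (y axis, percent) in each library (x axis). Each bar is 1 library and adds to the whole of its Reg reads. In MEKi 3 the Reg2, Reg3a and Reg3d shares nearly vanish, and Reg1 and Reg3g take 55.5% and 23.5%.

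Set against Cpb1, the members divided in the same way. Cpb1 had values of 10.33, 17.22, 18.76 and 9.22 in the control libraries and of 9.92, 9.26, 5.74 and 12.96 in the MEKi libraries, with 8 reads in MEKi 3. For every 100 reads of Cpb1, MEKi 3 had 75 reads of Reg2 (exact binomial interval 21.45 to 246.5), within the range of the other libraries (46.9 in control 3 to 192 in control 1). In the same library there were 11000 reads of Reg1 (interval 5558 to 25560), 4062 of Reg3b (2037 to 9490) and 4662 of Reg3g (2342 to 10880) per 100 reads of Cpb1. In the other 7 libraries these ratios were 38.1 to 262 for Reg1, 25.7 to 285 for Reg3b and 3.03 to 103 for Reg3g. Reg1, Reg3b and Reg3g transcripts were present in this library, which had 590 reads in all 23 acinar enzyme genes. Of these enzymes, Ctrb1 had the highest mean over the libraries (6.31 in MEKi 3, 19.46 in control 3), and Amy2a5, an amylase gene, the lowest (5.12 and 9.37). Most of the 590 reads were from 3 enzyme genes, the elastase gene Cela1 (value 8.08), the amylase gene Amy1 (7.43) and Ctrl (6.84), so enzyme transcripts were unevenly present in MEKi 3 as well.

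MEKi 4 had more Cpb1 beside its Reg reads. Its Cpb1 level was 6.46 times that of control 1 in normalised reads, while its Reg2 level was 1.61 times and its Reg1 level 1.2 times. Its Reg3d level was 0.95 times, its Reg3a level 0.76 times, its Reg3b level 0.65 times and its Reg3g level 0.32 times that of control 1. Outside control 2 and control 3, MEKi 4 was the highest library for Reg1 (11.79) and Reg2 (11.90). All 6 Reg genes together had 12.9 reads per 100 acinar enzyme reads in MEKi 4, close to the 12 of control 3 and below the 19.8 of control 2. The remaining libraries had 30.1 (MEKi 1), 32.1 (control 4), 50.2 (control 1), 52.9 (MEKi 2) and 269 (MEKi 3). The 3 libraries richest in acinar reads had the fewest Reg reads per acinar read. Acinar reads are the divisor of this ratio, so that order is partly built in. The mean of 9 tumour epithelial genes was 12.33 in MEKi 4 and 13.31 to 13.55 elsewhere. Among them Epcam, an epithelial adhesion gene, was 10.7 in MEKi 4 against 12.66 to 13.10 elsewhere, while Cdh1, the E-cadherin gene, was highest in MEKi 4 (14.49 against 14.14 to 14.32). The part of this in the Reg values was not tested.

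Control 2 and control 3 form a cluster of their own in acinar content, so no p-value was read for a correlation over all 8 libraries. As a description, r with the acinar mean passed 0.8 for 6 members over all 8 libraries. It passed 0.8 for 4 members over the other 6 libraries, a set chosen with the values known. Over the other 6, Reg2 followed the acinar enzyme mean with r = 0.94 (exact permutation p = 0.0111) and rho = 0.83 (exact permutation p = 0.0583). Reg3d had r = 0.89 and rho = 0.77 (exact permutation p = 0.0278 and 0.103), and Reg1 had r = 0.86 and rho = 0.83 (0.0111 and 0.0583). Reg3a had r = 0.85 and rho = 0.77 (exact permutation p = 0.0639 and 0.103), and Reg3b had r = 0.77 and rho = 0.77 (0.0806 and 0.103). Reg3g had r = -0.09 and rho = -0.37 (exact permutation p = 0.75 and 0.497). These are 6 relations with two-sided, unadjusted p-values. Without MEKi 3 and MEKi 4, the libraries farthest from the median, r over the 4 left was 0.55 to 0.76 for the first 5 genes and 0.24 for Reg3g. No test was run over these 4 libraries.

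The slopes are given as a description. Per 1 of the acinar enzyme mean over these 6 libraries, Reg2 was higher by 1.31 and Reg3a by 0.96. The slope was 0.63 for Reg3d, 0.60 for Reg3b and 0.47 for Reg1, and -0.04 for Reg3g. Among the members themselves, Reg2, Reg3a and Reg3d varied together over the 6 libraries (r = 0.98 to 1), and each was near the floor in MEKi 3. Reg3b had r = 0.96 with Reg3a and with Reg3d, and Reg3g was the member least like the rest (r = 0.22 to 0.55). No slope and no r between members was taken without MEKi 3.

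**Figure D4:**
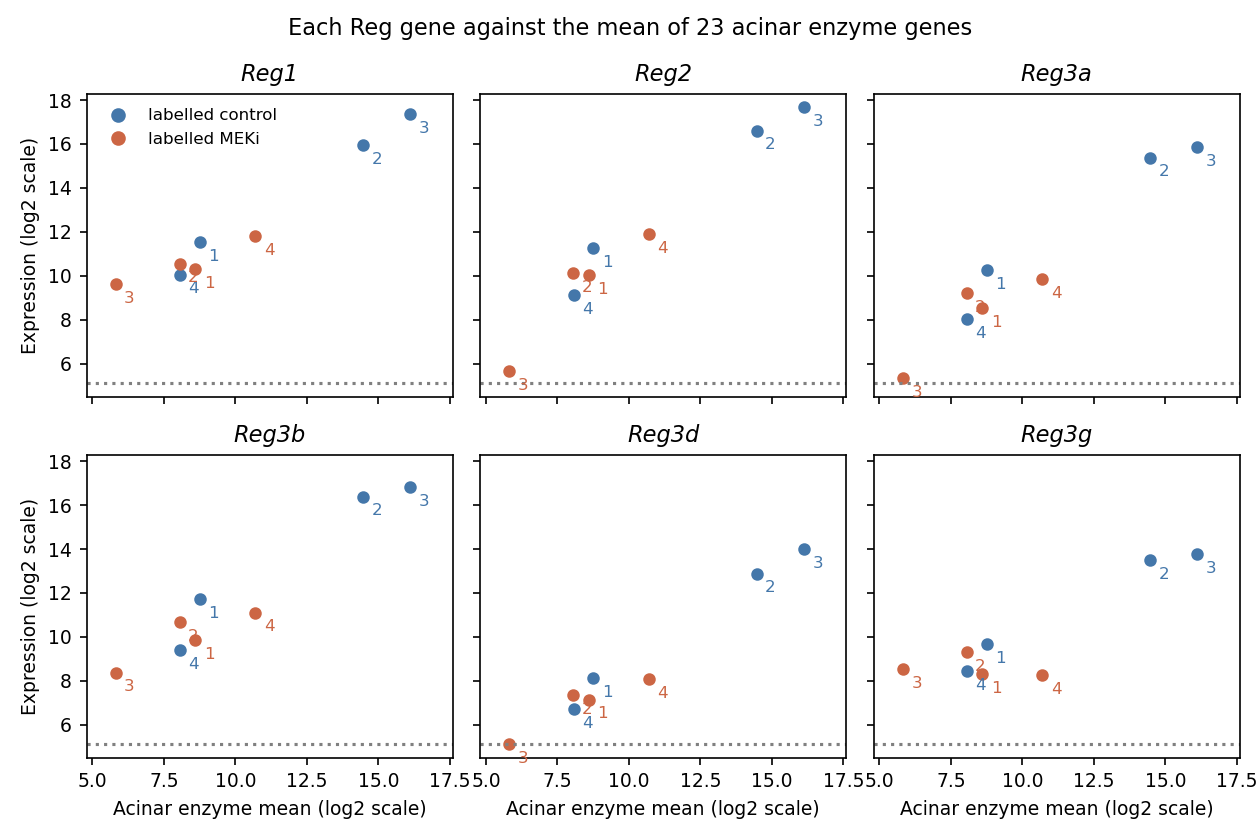
Expression of each Reg gene (y axis, log2 scale) against the mean of 23 acinar enzyme genes (x axis, log2 scale). Each point is 1 library with its replicate number, blue for control and orange for MEKi labels, and the dotted line is 0 reads. Control 2 and control 3 lie at the upper right in all panels, and the other 6 points slope upwards for Reg2 (1.31 per unit) but not for Reg3g (-0.04).

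The genes most like each member are given as a description. Over all 8 libraries those of 5 members were mainly acinar genes. The likeness was Pearson's r over 8 libraries among 9560 genes of at least median expression, and it is dominated by control 2 and control 3. For Reg2 the closest were the trypsinogen gene Prss2, the chymotrypsinogen gene Ctrb1 and the lipase-related gene Pnliprp1 (each r = 0.998), then Try5 (0.996) and 2210010C04Rik (0.995). For Reg3a they were Try5 (0.995), Prss2 (0.989), Ctrb1 and Klk1 (each 0.986) and Pnliprp1 (0.984). For Reg1 they were the zymogen granule gene Gp2 (0.993), Pnliprp2 (0.991), Sycn (0.988) and the kallikrein gene Klk1 (0.987). Reg3d had Klk1 (0.992), Pnliprp2 (0.989), Sycn (0.985), Gp2 and Rnase1 (each 0.984), and Reg3b had Klk1 (0.986), the trypsin inhibitor gene Spink1 (0.979), Pnliprp2 and Try5 (each 0.976) and Gp2 (0.974). For Reg3g, 0 of the 5 closest genes were on the acinar lists. They were the amino acid transporter gene Slc7a8 (0.971), Ggh (0.963), Slc41a1 (0.959), Mknk1 (0.95) and Gcat (0.94). The ranking depended on control 2 and control 3. Without them, over 6 libraries, 4 of the 5 closest genes were on the acinar lists for Reg2, 2 for Reg3d, 1 for Reg3a and 0 for Reg1, Reg3b and Reg3g. The r with Cpb1 went from 0.989 to 0.95 for Reg2, from 0.962 to 0.865 for Reg1, from 0.959 to 0.793 for Reg3b and from 0.865 to -0.055 for Reg3g.

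Between the labels, the mean of every Reg gene was lower in the MEKi libraries, but no difference passed the test. The means were 13.73 ± 3.49 and 10.56 ± 0.91 for Reg1, 13.66 ± 4.14 and 9.43 ± 2.66 for Reg2, and 12.37 ± 3.86 and 8.24 ± 2.01 for Reg3a (control and MEKi, SD, n = 4). They were 13.58 ± 3.62 and 10.00 ± 1.2 for Reg3b, 10.43 ± 3.56 and 6.92 ± 1.27 for Reg3d, and 11.35 ± 2.70 and 8.59 ± 0.48 for Reg3g. The log2 differences, MEKi minus control, were -4.23 for Reg2 (SE 1.95, 95% interval -8.61 to 0.15), -4.13 for Reg3a (SE 1.73, -8.01 to -0.26) and -3.58 for Reg3b (SE 1.51, -6.97 to -0.18). They were -3.51 for Reg3d (SE 1.5, -6.88 to -0.14), -3.17 for Reg1 (SE 1.43, -6.38 to 0.04) and -2.75 for Reg3g (SE 1.09, -5.20 to -0.30). For comparison, Cpb1 differed by -4.42 (SE 2.24, -9.44 to 0.61).

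By limma, with Benjamini-Hochberg adjustment over all 19129 genes, 0 of the 6 members were called (adjusted p = 1 for each), where 0.00523% of all genes were called lower. At an unadjusted p under 0.05, 4 of 6 members were lower (Reg3a, Reg3b, Reg3d and Reg3g) against 1.3% of all genes, and limma voom on the recovered reads called 0, with 0 at an unadjusted p under 0.05. That unadjusted count was also 0 with robust moderation, and without control 2, control 3, MEKi 1 or MEKi 3. It was 6 with library weights, and without control 1 or control 4. All members were highest in control 2 and control 3, so the members are not separate results. The median difference of the members was -3.54, that of the 23 acinar enzymes was -3.94, and that of all genes was 0.006. The labels overlapped in each member, so 0 of 6 had every MEKi value under every control value, as 0.701% of genes had. All 6 members differed by -2.5 or lower, as did 0.193% of genes. This limit was set with the values known, just short of the smallest member difference (-2.75 for Reg3g), so no result is read from the count.

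The differences were smaller without control 2 and control 3. With both left out, an alternative added after seeing the data, the differences were -0.23 for Reg1, -0.74 for Reg2, -0.89 for Reg3a, -0.55 for Reg3b, -0.50 for Reg3d and -0.45 for Reg3g. All 95% intervals then included 0, the narrowest being that of Reg3g (-1.41 to 0.50), with 2 control libraries left. With the acinar enzyme mean as a covariate and all 8 libraries, the differences were between -0.92 (Reg3g, interval -2.59 to 0.74) and -0.41 (Reg1, -1.43 to 0.61), and limma called 0 of the members and 0 of all genes (0% in each direction), with 0 members at an unadjusted p under 0.05. That last count was 4 without control 4, and 5 with the replicate number as a block beside the covariate, and 0 members were called in either. The share of all genes at that level in these fits is not given here, so no result about the members is read from these counts. Within the control label alone, control 1 exceeded control 4 by 2.68 times for Reg3g to 5.93 times for Reg3a in normalised reads.

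**Figure D5:**
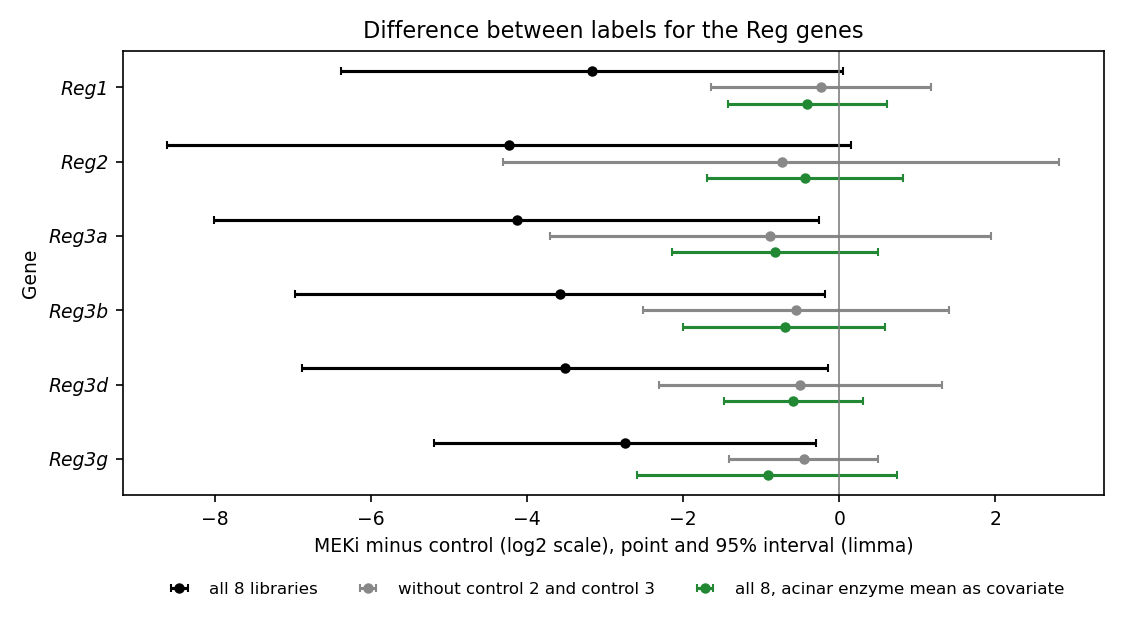
Difference between the labels, MEKi minus control on the log2 scale (x axis), for each Reg gene (y axis), as points with 95% intervals from limma. Black is the fit of all 8 libraries, grey is without control 2 and control 3, and green has the acinar enzyme mean as a covariate. The points move from between -4.23 and -2.75 (black) to between -0.92 and -0.23 (grey and green).

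Genes that act upstream of the Reg family or receive its signal were compared next. Of 27 listed cytokines, receptors and STAT3 pathway genes, 24 were measured, 16 with a lower and 8 with a higher mean in MEKi libraries. With limma 0 of them were called, with 0 at an unadjusted p under 0.05, and the median difference was -0.04. Of all genes, 0.00523% were called lower and 0% higher, so 0 called in a short list is no result about that list. The share of all genes with a lower mean is not given here, so no result is read from counts of signs. Both limits hold for the lists that follow. Stat3 itself had 12.80 ± 0.14 and 12.79 ± 0.14 (control and MEKi, SD, n = 4), the receptor subunit gene Il6st 12.59 ± 0.18 and 12.61 ± 0.30, and the STAT3 target gene Socs3 11.04 ± 0.47 and 11.01 ± 0.31. Il22ra1, a subunit of the interleukin 22 receptor, had 8.57 ± 0.20 and 8.36 ± 0.32. The gene with the smallest p was the oncostatin M receptor gene Osmr (11.90 ± 0.23 and 11.32 ± 0.83), with MEKi 4 at 10.11. Extl3, which encodes a receptor for Reg proteins, was even across the libraries, from 10.77 to 11.32, with a difference of 0.06 (SE 0.13, interval -0.23 to 0.36).

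Other secreted defence proteins were read beside the Reg genes. Lcn2, which encodes the iron-binding lipocalin 2, had values of 12.65, 12.02, 13.99 and 14.31 in the control libraries and of 13.92, 12.56, 11.66 and 12.48 in the MEKi libraries, so control 2, rich in Reg reads, was below 6 of the other libraries. Of 10 measured antimicrobial and acute-phase genes, 9 were lower in mean in the MEKi libraries and 0 were called by limma. Of them, 1 was lower at an unadjusted limma p under 0.05, as were 1.3% of all genes. That gene was Saa3, a serum amyloid A gene (11.58 ± 0.99 and 9.04 ± 1.45, log2 difference -2.53, SE 0.70, limma adjusted p = 1), whose lowest library, MEKi 3 at 7.38, was also the lowest for most Reg genes. Of 20 genes of acinar injury and duct-like change, 15 had lower means and 0 were called. Their gene with the smallest p was the trefoil factor gene Tff2 (11.76 ± 1.43 and 10.06 ± 1.21), which was highest in control 3 (13.60) and control 2 (12.12).

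Markers of acinar cells and of other cell types were compared over the same libraries, and limma called 0 genes of each list. Among 14 further acinar secretory genes the smallest p was that of Spink1 (10.62 ± 2.62 and 6.85 ± 1.13, control and MEKi, SD, n = 4), and among the enzymes that of Try5 (14.07 ± 3.92 and 9.47 ± 2.53). Islet hormone and granule genes, 14 measured of 16, had a summed level of 2127 to 10580 normalised reads in the control libraries and of 21.2 to 6538 in the MEKi libraries, the lowest being MEKi 3, where Ins1, Ins2 and Iapp had 0 reads. The islet list mean was highest in control 3 (8.26) and lowest in MEKi 3 (5.28), and it was 6.99 in control 2. Of 17 intestinal genes, 11 were measured, with sums of 9722 to 13140 and of 8187 to 13170. Several further intestinal genes, and Reg4, were not analysed here. The intestinal gene with the smallest p was the enterocyte gene Fabp2 (5.55 ± 0.12 and 5.94 ± 0.24), with 1 to 20 reads per library. It is too near the floor to show whether intestinal content was even. Stomach genes, 8 measured of 10 listed symbols, summed to 450 to 1399 and 446 to 827, with the chief cell gene Cblif highest in control 3 (9.49) and control 2 (8.89). An older symbol of Cblif was listed beside it and counts among those not measured. Neutrophil genes, 7 of 8, summed to 7431 to 8914 and 2191 to 11460. Macrophage genes, all 10 measured, summed to 25090 to 37820 and 21580 to 27160, and the 9 tumour epithelial genes to 162400 to 197300 and 131200 to 198500. In these lists the smallest p was that of Sst for islets (6.72 ± 0.53 and 5.91 ± 0.66), Csf3r for neutrophils (10.90 ± 0.06 and 10.31 ± 0.68), Itgam for macrophages (9.39 ± 0.57 and 8.72 ± 0.57) and Cldn4 for tumour epithelium (9.19 ± 0.05 and 8.65 ± 0.90). Of 8 liver genes 5 were measured, with sums of 6231 to 9211 and 7954 to 20450, and Apob had the smallest p (12.71 ± 0.32 and 13.29 ± 0.62). The part of these cell types in the Reg values was not tested.

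The drug label was checked by genes that ERK signalling drives. Dusp6, an ERK phosphatase gene induced by ERK activity, had means of 10.72 ± 1.67 and 11.05 ± 1.55 (control and MEKi, SD, n = 4). Of 15 ERK output genes, 10 had a higher mean in MEKi libraries, 0 were called by limma, and the smallest p was that of Etv1 (8.21 ± 0.54 and 7.80 ± 0.32). Dusp6 was high in control 1, control 2, MEKi 2 and MEKi 3 (12.12 to 12.20), lower in MEKi 4 (11.01), and low in control 3, control 4 and MEKi 1 (8.88 to 9.31). Control 2 and control 3, the libraries with the highest Reg values, thus differed in Dusp6.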

How the data were processed

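Stranded total RNA libraries were made from 8 isografts, per the labels' protocols. The submitters' processing notes name STAR 2.5.3a, DESeq2 1.18.1 and build GRCm38. The annotation, counter and filter are not known here. The deposited log2-like values come from a variance-stabilising transformation, per the name of the authors' table. Inverting it from the value of 0 reads (5.12) gave whole reads for 100% of values (tolerance 0.01), from which depth and reads were taken. Of 19431 rows, 32 named no gene (0.101% to 0.167% of a library's reads) and were removed. Where a symbol had several rows (86 symbols), the row of highest mean was used.

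The test was limma 3.58.1 under R 4.3.3 (eBayes with a trend, two-sided, no covariate, Benjamini-Hochberg over all genes, threshold 0.05), tested on simulated data. Intervals on reads cover counting error only. Lengths and places are from GENCODE for GRCm38, and the RefSeq promoter table matched 6 of 6 members. The members and lists were chosen with earlier results of these data known.

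Named genes are the members, Cpb1, the acinar enzymes of highest and lowest mean, the gene with the smallest p of each list, Extl3, Il6st, Stat3, Socs3, Il22ra1, Lcn2, Dusp6, and the 5 genes most like each member, of which 1 is not reported here. Epcam, Cdh1, Cela1, Amy1, Ctrl, Ins1, Ins2 and Iapp were chosen after their values were seen. Alternatives changed the moderation (robust, or without a trend), the scaling (quantiles or medians), the genes kept (the highest 75% by mean, or every row), the weights of libraries, and the test (limma voom on recovered reads, with trimmed-mean scaling factors computed by a script). Others added the acinar mean, Cpb1 or the replicate number to the fit, or left out libraries. Figures were drawn with matplotlib 3.10.9.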

Additional observations from a re-analysis of the deposited data

How the results depend on the processing

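The call of 0 Reg genes held in all 19 alternatives of the comparison between labels and in all 10 of the comparison given the acinar mean, each library left out in turn included (0 to 0 called). Only 0 to 4 of all genes were called in the alternatives between labels, so this unchanged count says little about the members. The members' differences kept their negative sign in all 19. Leaving out 1 library gave -4.39 to -1.95 for Reg1, -5.74 to -2.89 for Reg2, -5.59 to -2.97 for Reg3a, -4.97 to -2.5 for Reg3b, -4.76 to -2.32 for Reg3d and -3.73 to -1.94 for Reg3g, the smallest being without control 3 in each case. Given the acinar mean, leaving out 1 library gave -0.92 to 0.19 for Reg2 (0.19 without control 1) and -1.82 to 0.02 for Reg3g (0.02 without MEKi 4), so both changed sign, and the cause was not tested. It gave -1.09 to -0.03 for Reg1, -1.59 to -0.28 for Reg3a, -1.74 to -0.2 for Reg3b and -1.16 to -0.09 for Reg3d. The Cpb1 difference was 0.02 with the acinar covariate, which contains Cpb1.

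Over all genes, 1 was called. The count was 0 with the replicate block, 0 with the acinar covariate, 0 among the 75% of genes with the highest mean (fewer genes), 0 to 2 without 1 library (2 without control 4, 1 without control 2 or control 3, 0 without any of the other 5), and 4 without control 2 and control 3. The cause was not tested. Whether the replicate numbers pair the mice is not known here. The correlation of deviations between same-numbered libraries was -0.333, 0.196, -0.465 and 0.024, which cannot show whether mice were paired. Only for number 2 was the same-numbered library the best match. With the block 0 Reg genes were called. Of the members, 2 then had an unadjusted p under 0.05, and 5 with the block and the acinar covariate together. The share of all genes at that level is not given for these fits. Values of Reg2, Reg3a and Reg3d in MEKi 3 rest on 6, 1 and 0 reads, in a library with 29919922 reads in tested genes.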
